A study of Xenopus laevis with 4 samples.

Results

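The genes described here encode regulators of the paraxial mesoderm, the tissue beside the notochord that forms somites and muscle, and zinc finger and bHLH factors of the snail and twist families. The members were the gene entries whose symbol, without the final .L or .S that marks the homeolog, is myod1, myf5, msgn1, mespa, mespb, snai1, snai2 or twist1. This rule found 13 of the 45098 entries of the deposited table, for 7 of the 8 symbols. The symbol snai2 and an entry named snai1.L were not matched and were not analysed here. All 13 symbols are also in the RefSeq gene names of assembly Xenopus_laevis_v10.1. There the mespa and mespb genes of each subgenome are neighbours with only mesp2 between them, myf5 lies beside myf6, and the gene named snai1.S lies, despite its ending, on a chromosome of the L subgenome between ube2v1.L and rnf114.L.

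RNA was sequenced from whole Xenopus laevis embryos of the early gastrula, stage 10.5, in 2 samples of triple knockdown (TKD) embryos and 2 samples of water-injected control embryos, with 10 embryos pooled per sample. TKD embryos had been injected at the 1-cell stage with modified antisense DNA oligonucleotides against tbp, tbp2 and tlf, the mRNAs of TATA-binding protein and its relatives, which lead RNase H to cut the target. The labels give 0.8 ng of the mixture, whereas the study's methods give a separate dose for each oligonucleotide. The frogs were outbred, the controls received water and no oligonucleotide, and the study describes TKD embryos as halted before cells move inwards, so loss of the factors and failure to gastrulate cannot be told apart in these samples. The 3 oligonucleotides are shown because they are what separates the groups. Capitals mark the stretch joined by unmodified linkages, 7 linkages for tbp and 6 for the others, and each has 10 modified linkages outside it.
tbp oligonucleotide: tgcatTTCGCGCTctaag
tbp2 oligonucleotide: tcatcGTATGGAgtcat
tlf oligonucleotide: atatcCAGTGCCacatc

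In vertebrate gastrulae, Wnt and FGF signals and T-box factors such as Brachyury set up the posterior and paraxial mesoderm. Mesogenin (msgn1) marks unsegmented presomitic cells, Mesp factors act where the next somite boundary forms, and Myf5 and MyoD commit cells to muscle. Snail and Twist factors are known for lowering cell adhesion in mesoderm and neural crest cells. In Xenopus, myod1 and myf5 are switched on in the marginal zone as gastrulation begins.

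The deposited table gives 1 mean per group and gene. Because each mean is a sum of whole reads of 2 libraries divided by 2 size factors, the reads of each library could be recovered. The libraries of a group are called deeper and shallower, since the recovered reads carry no replicate number. TKD libraries held 2523060 and 1414476 recovered reads and control libraries 5222085 and 3436848, over the 45088 genes solved in all 4. A normalized read count is a read count divided by the size factor. Entries were tested with limma-voom if they had at least 10 reads in at least 2 libraries, and were called at an adjusted P-value under 0.1 over all 17026 genes tested. Of these genes 24.6% were called, 14.3% lower and 10.3% higher in TKD embryos. With library totals of these recovered reads as scaling in place of the size factors, the share of lower genes among those called went from 58.2% to 41.9%. These totals leave out the 10 genes that were not solved. Neither the labels nor the methods tie the samples to separate clutches, and P-values therefore reflect sample-to-sample spread that may be only technical. Of the targeted mRNAs, tbp.S had 32.9 and 19.8 normalized reads in TKD and 57.8 and 87.7 in control libraries (log2 fold change −1.32, SE 0.466, adjusted P = 0.0943, limma-voom). For tbp.L the values were 10.3 and 11.6 against 12.2 and 23.5 (adjusted P = 0.638, limma-voom), tbpl2.L had at most 13 reads in a library, and tlf was not matched by symbol. The study itself reported loss of TBP protein by western blot and of tlf and tbp2 mRNA by RT-qPCR in TKD embryos. Globin genes, not due at this stage, had no read in 5 of 6 entries, and in the other, hbd.L, only the deeper TKD library had reads.

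Transcripts of msgn1 and myf5 fell in TKD embryos, with all 4 of their entries past the threshold. TKD values were below all control values for 7 entries and above them for 1, and 5 overlapped. Among all genes tested, 30.7% lay below and 29.9% above in this way, and 14.3% were called lower. Several members passed the filter through control libraries alone, so their counts cannot be set against these shares directly. No member rose (0 entries past the threshold in limma-voom, and 0 higher at an unadjusted P-value under 0.05). Added over all 13 entries, the members had 164.6 and 196.8 normalized reads in TKD against 422.9 and 374.2 in control libraries. In such whole-embryo samples, fewer cells that express a gene and less RNA in each of them cannot be told apart.

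**Figure D1:**
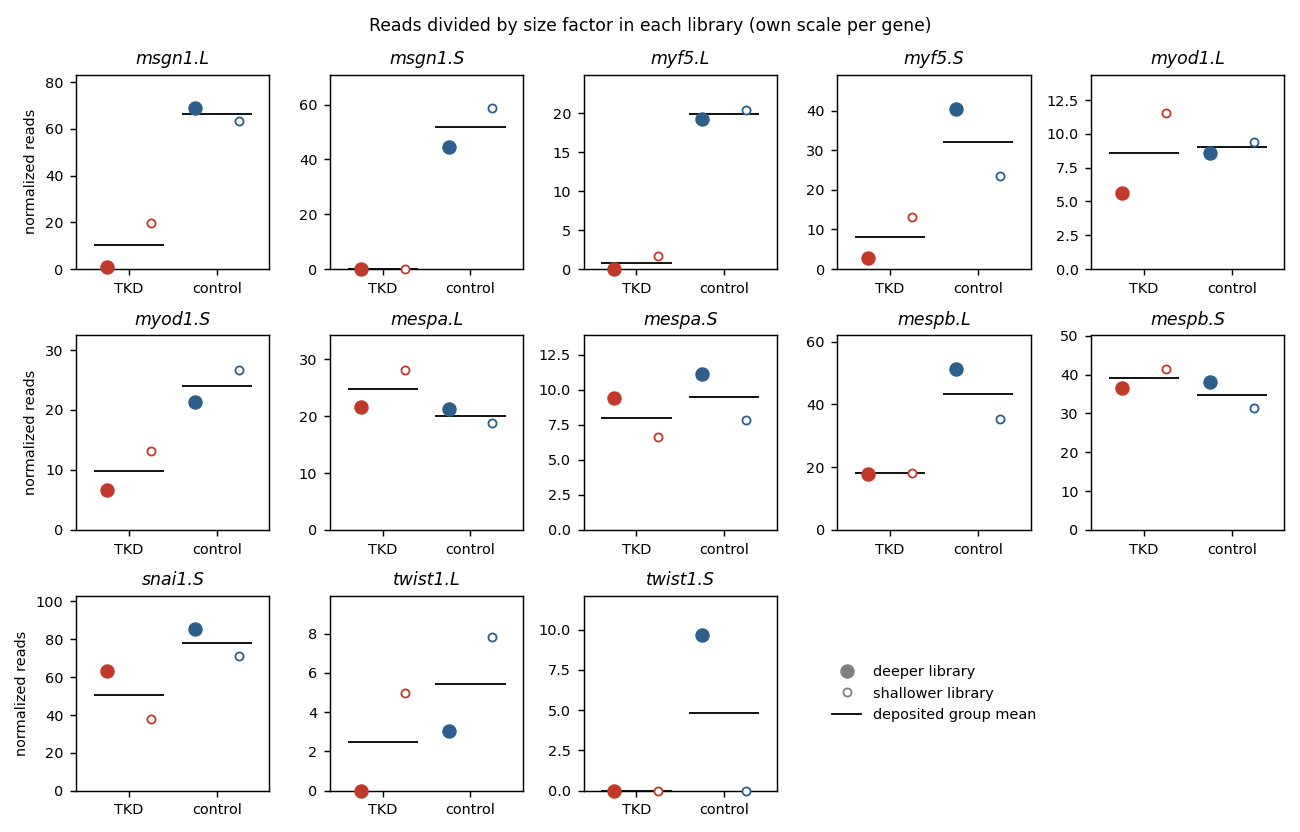
Normalized reads (reads divided by the size factor) of the 13 entries in each library, with a separate vertical scale for each gene. Large filled points are the deeper and small open points the shallower library of a group, and the line is the deposited group mean. Both TKD libraries lie below both control libraries for msgn1.L, msgn1.S, myf5.L, myf5.S, myod1.S, mespb.L and snai1.S, and msgn1.S is at 0 in TKD. Levels of different genes are not per length and should not be set against each other.

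Mesogenin is a bHLH factor needed for presomitic mesoderm. Its homeolog msgn1.S had 0 reads in both TKD libraries and 88 and 75 reads in the deeper and the shallower control library, or 44.6 and 58.7 normalized reads. The groups did not overlap. With 3 reads taken as the limit for the TKD libraries together, the pooled control level was 27.9 times that limit. The exact 95% interval of the ratio of TKD to control by pooled reads was 0 to 0.0446, which covers counting error only. The adjusted P-value of limma-voom for msgn1.S was 0.0075. The other homeolog, msgn1.L, had 1 read in the deeper and 12 in the shallower TKD library, against 136 and 81 reads in the control libraries. In normalized reads these are 0.940 and 19.8 against 69.0 and 63.4, so that the TKD libraries were both low but far from each other while the control libraries were close. The fitted log2 fold change of msgn1.L was −4.06 (SE 1.00, 95% confidence interval −6.37 to −1.75, adjusted P = 0.0336, limma-voom). Without the deeper TKD library the log2 fold change of msgn1.L was −1.69 and no longer past the threshold (adjusted P = 0.185, limma-voom). Without the shallower one it was −5.57 (adjusted P = 0.0334, limma-voom). For msgn1.S the adjusted P-value of limma-voom stayed between 0.00795 and 0.0446 with each library left out in turn.

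Myf5 is one of the bHLH factors that commit cells to muscle. The entry myf5.L had 0 reads and 1 read in TKD libraries, and controls had 38 and 26, which are 0 and 1.65 against 19.3 and 20.4 normalized reads. The TKD level was 0.0304 of the control level by pooled reads, with an exact 95% interval of 0.000759 to 0.176 that covers counting error only. The adjusted P-value of myf5.L was 0.0339 (limma-voom). With libraries thinned to 1 depth myf5.L did not pass the filter and was not tested. The call was lost when the deeper TKD library (0.188), the deeper control library (0.15) or the shallower control library (0.132) was left out, although the fitted log2 fold change lay between −4.26 and −3.01 in these 3 fits (limma-voom). The homeolog myf5.S had 3 and 8 TKD reads and 80 and 30 control reads. In normalized reads these are 2.82 and 13.2 against 40.6 and 23.5, again without overlap but with a wide spread in both groups. Its log2 fold change was −2.50 (SE 0.869, 95% confidence interval −4.51 to −0.50, adjusted P = 0.0893, limma-voom). Without the deeper TKD library the log2 fold change of myf5.S was −1.22 (adjusted P = 0.429, limma-voom), and without the deeper control library −2.10 (adjusted P = 0.237, limma-voom). It was also lost with library totals as scaling (adjusted P = 0.101, limma-voom), with limma-trend (adjusted P = 0.108) and with libraries thinned to 1 depth (log2 fold change −1.71, adjusted P = 0.194, limma-voom).

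MyoD, the other early muscle determination factor, differed between its homeologs in the values but was called in neither. For myod1.S, 7 and 8 TKD reads stood against 42 and 34 control reads, or 6.58 and 13.2 against 21.3 and 26.6 normalized reads. The groups of myod1.S did not overlap, and its log2 fold change was −1.37 (95% confidence interval −2.85 to 0.12, adjusted P = 0.187, limma-voom). The entry myod1.L was low in all libraries, with 5.64 and 11.6 normalized reads in TKD and 8.62 and 9.40 in control libraries. Both control values lay between those of the TKD libraries. Its log2 fold change of −0.20 (95% confidence interval −1.90 to 1.49) allows a change of more than 2-fold either way, and turned to 0.42 without the deeper TKD library. Myogenin and Myf6, which act later in muscle formation, had hardly any reads. Of their 4 entries, 3 had none in any library, and myf6.S had 4 reads in the deeper control library only.

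The Mesp factors are bHLH proteins of mesoderm and of segmentation. The entry mespb.L had 19 and 11 TKD reads against 101 and 45 control reads, which are 17.9 and 18.2 against 51.2 and 35.2 normalized reads. The groups did not overlap, and the TKD libraries were alike. The log2 fold change of mespb.L was −1.25 (SE 0.493, 95% confidence interval −2.39 to −0.11, adjusted P = 0.125, limma-voom), and its adjusted P-value lay between 0.102 and 0.451 in the alternatives. Its homeolog mespb.S had 36.7 and 41.3 normalized reads in TKD and 38.0 and 31.3 in control libraries. These overlap, with a log2 fold change of 0.14 (95% confidence interval −0.72 to 1.00, adjusted P = 0.828, limma-voom). The neighbouring gene mespa.L was the entry with TKD values above those of controls, at 21.6 and 28.1 against 21.3 and 18.8 normalized reads. That margin is narrow, and the log2 fold change was 0.25 (95% confidence interval −0.81 to 1.3, adjusted P = 0.747, limma-voom). For mespa.S, 9.40 and 6.61 normalized reads in TKD overlapped 11.2 and 7.83 in control libraries (log2 fold change −0.18, 95% confidence interval −1.84 to 1.48). These 3 entries did not pass, and the intervals of mespb.S and mespa.L do not reach a 2-fold fall.

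Snail1 is a zinc finger repressor of E-cadherin in many animals. The entry snai1.S had the most reads of the members, 67 and 23 in TKD and 168 and 91 in control embryos. In normalized reads these are 63.0 and 38.0 against 85.2 and 71.2, low in both TKD libraries without overlap. The log2 fold change of snai1.S was −0.59 (SE 0.351, 95% confidence interval −1.40 to 0.22, adjusted P = 0.287, limma-voom). By the rule for likeness, its 3 nearest genes with a symbol among 12067 candidates were timm9.S, dusp12.L and pcnp.L, whose centred log2 levels differed from its own by a root mean square of 0.0345, 0.037 and 0.0442 over the 4 libraries. Such small differences are easily found with 4 values per gene and this many candidates, and no shared regulation follows from them. Twist1, a bHLH factor of mesenchyme and neural crest, was too low to be tested. The entry twist1.L had 0 and 3 TKD reads and 6 and 10 control reads, a level of 0.365 of control by pooled reads (exact 95% interval 0.0682 to 1.28, counting error only). For twist1.S the TKD libraries had 0 reads and the deeper control library had 19, but the shallower control library also had 0. By pooled reads the ratio of twist1.S had an exact 95% interval of 0 to 0.417 (counting error only), which takes no account of this disagreement between the control libraries. For twist1.L a difference between the groups was not detectable at this depth. Of the related genes, snai3.1, which was chosen after its values were seen, had 1 and 6 reads in TKD and 0 in control libraries, and twist2.L had 2 reads in all.

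In counts, 4 of the 11 members tested were called lower, 0 were called higher and 7 were not called, where 14.3% of all genes tested were called lower. Of the 11, 7 had TKD values below all control values, as had 30.7% of all genes tested, and 1 had both above, as had 29.9%. The median log2 fold change was −1.25 for the 11 members and 0.04 for all genes tested. These counts cannot be set against the background directly, since 5 of the 11, among them 3 of the 4 called, had fewer than 10 reads in each TKD library and passed the filter through control libraries alone. The count of 4 became 1 without the deeper TKD library and 2 without the deeper control library. The plot of fold changes shows the members in order of their roles.

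**Figure D2:**
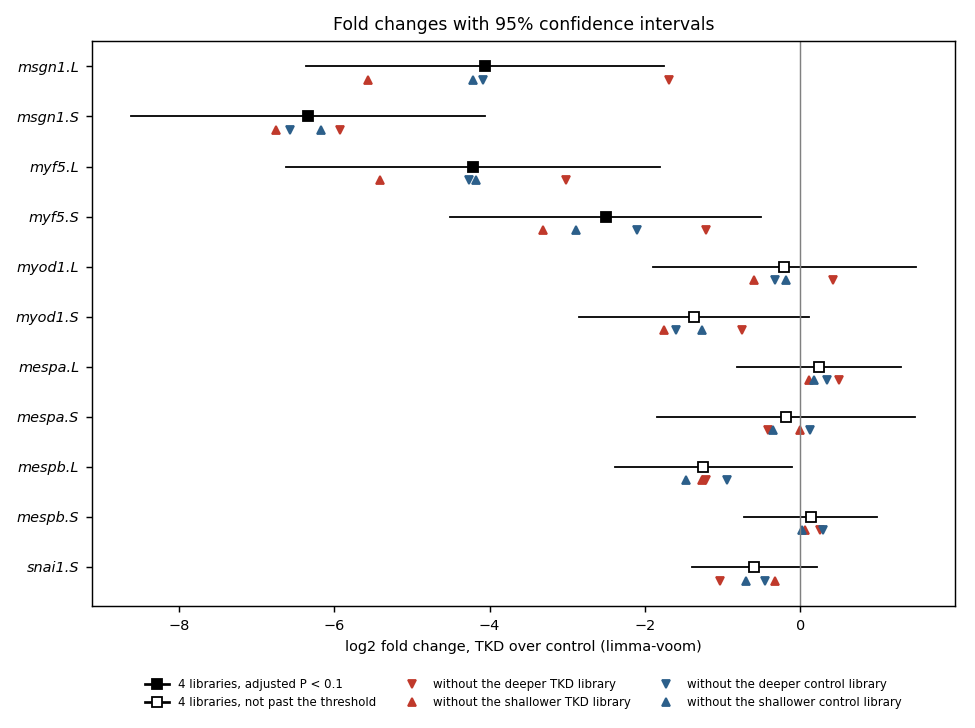
Log2 fold change of TKD over control with its 95% confidence interval (limma-voom) for the 11 entries tested. Filled squares are past an adjusted P-value of 0.1, and triangles give the value with 1 library left out. The triangles of msgn1.L spread from −5.57 to −1.69 and those of mespb.S from 0.03 to 0.30. For msgn1.S, without reads in TKD, the fitted value depends on the offset added to the reads.

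The 2 TKD libraries differed from each other by at least 2-fold for 4 of the 9 entries with reads in both. The shallower TKD library was at 21.1 times the normalized level of the deeper one for msgn1.L, 4.69 times for myf5.S, 2.05 times for myod1.L and 2.01 times for myod1.S. For the Mesp genes and snai1.S the ratio lay between 0.604 and 1.3. In the other entries the deeper TKD library had no read, the shallower one 3 reads of twist1.L and 1 of myf5.L, and neither had any of msgn1.S or twist1.S. By size factors 63.7% of the reads of a TKD entry should fall in the deeper library. For msgn1.L this share was 7.69% (exact binomial 95% interval 0.195% to 36.0%) and for myf5.S 27.3% (6.02% to 61.0%), both with an upper limit under 63.7%. For snai1.S it was 74.4% (64.2% to 83.1%), above it. The intervals of myod1.L and myod1.S include it. Among the 2358 genes tested with 10 to 30 reads in the TKD libraries together, 21.3% had a ratio of shallower over deeper of at least 2. A ratio near 2 was thus common at such counts, and differences in the opposite direction were not counted. In control libraries 60.7% was due in the deeper one. There myf5.S was at 72.7% (63.4% to 80.8%), mespb.L at 69.2% (61% to 76.5%) and twist1.S at 100% (82.4% to 100%), all with a lower limit above 60.7%. For msgn1.L the share was 62.7% (55.9% to 69.1%). Intervals cover counting error only, and the spread of the libraries is part of every test above.

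Whether the homeologs of a gene responded differently was tested on the ratio of L to S reads in each library, in which the size factor cancels. Of 3669 pairs tested, 7.11% were called, and of the 5 member pairs 0 were called by limma, with 1 (mespb) at an unadjusted P-value under 0.05. The log2 ratio of mespb.L to mespb.S was −1.02 and −1.15 in TKD and 0.43 and 0.17 in control embryos. It was thus lower in both TKD libraries, with a difference of −1.38 (SE 0.594, 95% confidence interval of the difference −2.74 to −0.02, adjusted P = 0.242, limma). For myod1 the log2 ratio was −0.21 and −0.18 in TKD and −1.28 and −1.46 in control libraries, a difference of 1.18 (95% confidence interval −0.89 to 3.24, adjusted P = 0.516, limma). The ratios of mespb and myod1 were each close within a group. For myod1 in TKD they rest on 6 to 8 reads per entry and library, too few for this closeness to show good repetition. For myf5 the L homeolog was lower relative to S in TKD libraries, with a difference of −2.02 (95% confidence interval −4.44 to 0.40, adjusted P = 0.332, limma). For msgn1 it was higher relative to S by 2.75 (95% confidence interval −0.035 to 5.53, adjusted P = 0.256, limma). Both rest on TKD entries with at most 13 reads. Since msgn1.S had 0 TKD reads and myf5.L had 1, their TKD ratios depend on the pseudocount. With a pseudocount of 1 the differences were 1.98 for msgn1 and −1.46 for myf5. Without the deeper TKD library, which leaves 1 TKD library, the msgn1 difference was 4.28. With the reads of both homeologs added up, the log2 fold change was −4.88 for msgn1 (adjusted P = 0.0179, limma-voom) and −3.13 for myf5 (adjusted P = 0.0388, limma-voom), both past the threshold. Summed myod1 (−0.995), mespa (0.13), mespb (−0.47) and twist1 (−2.72) did not pass. Homeologs can share reads where their sequences are the same, and the program that counted reads is not given in the sources used here.

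**Figure D3:**
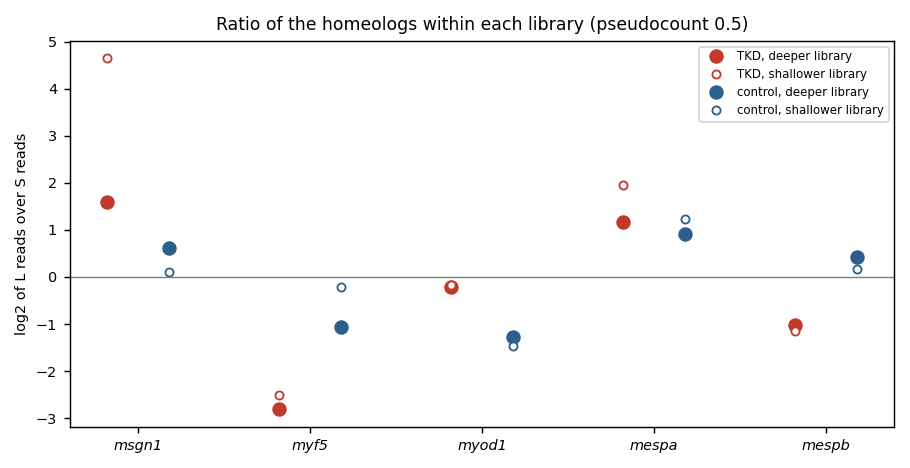
Log2 of the reads of the L over those of the S homeolog, with a pseudocount of 0.5, in each library for the 5 member genes with both entries tested. TKD points lie below control points for myf5 and mespb and above them for msgn1 and myod1. The points of mespa overlap (1.16 and 1.96 in TKD, 0.92 and 1.22 in control libraries). None of the 5 differences passed the adjusted threshold.

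The genes around the members in the same developmental steps were followed through lists. For comparison with the list counts, 14.3% of all genes tested were called lower and 10.3% higher. Of 26 entries tested for T-box, Wnt, FGF and caudal genes that induce posterior mesoderm, 12 fell, 3 rose and 11 did not pass, with a median log2 fold change of −0.66. Without the deeper TKD library 5 fell and 1 rose. Brachyury, the T-box factor of the early mesoderm, fell in both homeologs. For t.L, 60.2 and 71.1 normalized reads in TKD stood against 471.1 and 392.2 in control libraries (log2 fold change −2.73, adjusted P = 0.00287, limma-voom). For t.S the values were 125.1 and 176.9 against 480.7 and 569.2 (log2 fold change −1.85, adjusted P = 0.00512, limma-voom). The caudal factors cdx1.S and cdx4.L, which pattern the posterior body, had log2 fold changes of −2.09 and −2.39 (adjusted P = 0.00369 and 0.00601, limma-voom). The 3 that rose were the homeologs of eomes and wnt8a.L, whereas wnt8a.S fell. In each of these the libraries of the 2 groups were apart.

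Of 26 entries tested for presomitic and somitic genes, 13 fell, 0 rose and 13 did not pass, with a median log2 fold change of −1.21, and 7 fell without the shallower TKD library. The hairy-related gene hes6.1.L was at 64.9 and 46.3 normalized reads in TKD and 229.2 and 220.8 in control libraries (log2 fold change −1.97, adjusted P = 0.00674, limma-voom). Of the Notch pathway, which times somite formation, the DNA-binding factor entry rbpj.L fell (log2 fold change −1.41, adjusted P = 0.0134, limma-voom). The ligand entry dlc.L fell as well (log2 fold change −1.53, adjusted P = 0.0171, limma-voom). The Notch target hes5.1.L had 0 TKD reads and 47 and 40 control reads. The receptor entries notch1.S and notch1.L were also called lower (log2 fold change −1.43 and −1.07, adjusted P = 0.0194 and 0.0983, limma-voom). So was the ligand entry dll1.L (log2 fold change −1.17, adjusted P = 0.0595, limma-voom). Some other entries of the pathway were not called lower. The homeolog rbpj.S had 82.75 and 81.03 normalized reads in TKD against 35.5 and 68.9 in control libraries (log2 fold change 0.81, adjusted P = 0.187, limma-voom). The log2 fold change was 0.06 for dll1.S and 0.20 for lfng.S, and neither passed. Thus the called entries of this list shared the direction of msgn1 and myf5. The list was chosen with earlier results of these data known, and 10 of 11 epidermis entries tested fell as well.

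Of the 23 entries of the muscle list 8 had enough reads to be tested, and 7 had no read at all, among them both homeologs of myog, mef2c and smyd1. Of the 8, 1 fell and 2 rose, where 14.3% of all genes tested were called lower and 10.3% higher. The RNA-binding protein gene rbm24, active in early muscle cells, rose in both homeologs. The log2 fold changes were 0.91 for rbm24.S and 0.82 for rbm24.L (adjusted P = 0.0446 and 0.0866, limma-voom), opposite in direction to myf5, and no entry of the list rose when the deeper TKD, the shallower TKD or the deeper control library was left out. The splicing regulator gene rbm20.L, whose call was lost without either TKD library, fell (log2 fold change −1.43, adjusted P = 0.0388, limma-voom). Of the Id genes, whose products hold bHLH factors inactive, id4.S fell, with 0 and 1 reads in TKD against 24 and 12 in control libraries (adjusted P = 0.0726, limma-voom). It was the only call among the 3 entries tested of the list of E proteins and Id factors. The call was lost without the deeper TKD library or either control library. Of the 7 symbols of that list only id2 and id4 were matched, so no E protein was tested.

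Of 21 entries tested for genes of cell adhesion, mesenchyme and neural crest, 8 fell, 2 rose and 11 did not pass, with a median log2 fold change of −0.88. The E-cadherin gene cdh1.S, a known target that Snail1 represses in mammals, fell with a log2 fold change of −2.17 (60.2 and 76.1 against 301.2 and 298.3 normalized reads, adjusted P = 0.00401, limma-voom). Both snai1.S and cdh1.S were lower in TKD libraries in their values, with only cdh1.S past the threshold. A link between the levels of these genes was not tested. The cadherin gene cdh3.S had a log2 fold change of −1.41 (adjusted P = 0.00501, limma-voom). Fibronectin, the matrix protein on which mesoderm migrates, had a log2 fold change of −2.92 for fn1.L (adjusted P = 0.00254, limma-voom) and of −1.91 for fn1.S (adjusted P = 0.00376, limma-voom). With any library left out at most 1 entry of this list rose, and 5 fell without the shallower TKD library.

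**Figure D4:**
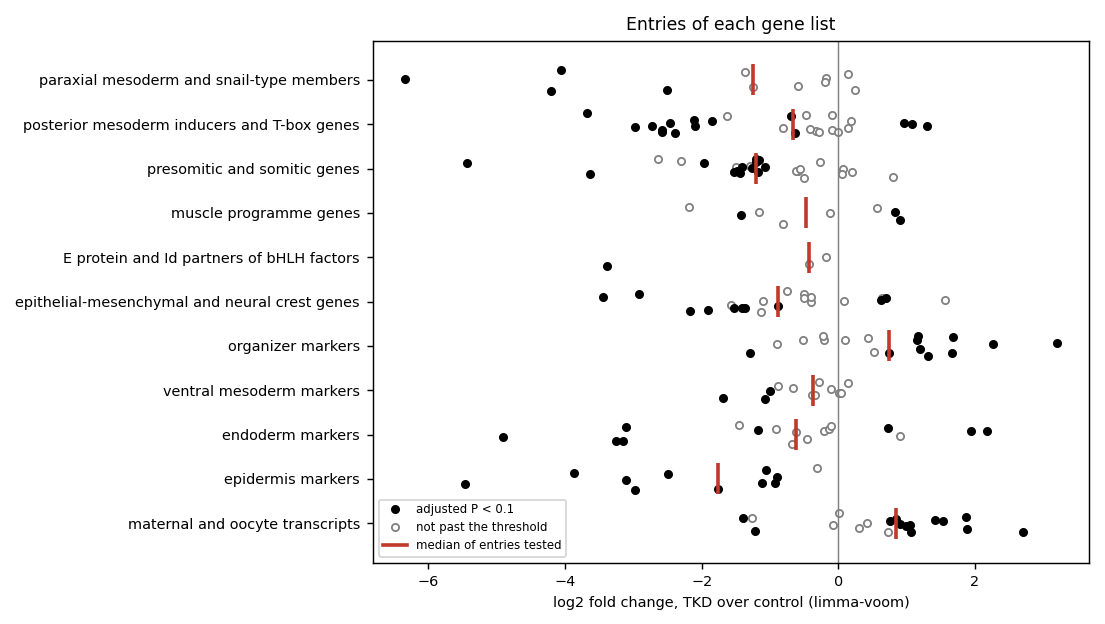
Log2 fold changes (limma-voom) of the entries tested in each gene list, with filled points past an adjusted P-value of 0.1 and a bar at the median of the list. The members reach from −6.34 to 0.25. The median bars lie at −1.21 for presomitic, −0.66 for posterior mesoderm, −1.76 for epidermis, 0.74 for organizer and 0.84 for maternal entries.

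Markers of other parts of the embryo moved as well. Of 11 epidermis entries tested, 10 were lower, and their summed level was 1913 to 2194 normalized reads in TKD and 6593 to 7010 in control libraries. Of 17 organizer entries, 9 were higher and 1 lower (4622 to 6233 against 3442 to 4544). Of 12 ventral mesoderm entries, 3 were lower and 0 higher (1503 to 1650 against 2019 to 2170), and tal1 had no read in any library. Of 17 endoderm entries, 5 were lower and 3 higher (5545 to 7074 against 4408 to 6187), and darmin.S had no read in any library. Of 19 maternal and oocyte entries, 11 were higher and 2 lower (8131 to 8414 against 4248 to 4435), and velo1.S had no read in any library. The part of these differences in the values of the members was not tested.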

How the data were processed

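The labels describe ribosomal RNA-depleted total RNA, sequenced as 75 nt single-end reads and mapped with STAR to genome version JGI 9.1 with 1 mismatch allowed. STAR and DESeq are the tools in the submitters' processing notes. The sources used here name neither their versions nor the read counter. The authors' deposited signal columns hold, per gene, the mean over the libraries of a group of reads divided by size factors. The authors' columns of fold changes and P-values were not used, and 1 line of the table was empty. The members and all gene lists were chosen with earlier results of these data known.

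The 2 steps of which each group mean is a sum were fitted, giving size factors of 1.063 and 0.605 for TKD and 1.972 and 1.277 for control libraries, and whole reads as the only solution for 45088 of 45098 genes. Residuals were at most 5.8e-09 for means below 100. The 10 genes with several solutions in control were left out, and 4 of them also had several in TKD. Genes with 1 solution within a group held 94.64% of the signal in TKD and 89.23% in control. The TKD share of the genes kept may therefore be lower. On simulated means of 6000 genes, drawn from the TKD reads of solved genes, all 6000 were recovered. Genes with several solutions and control means were not part of this trial. Since the table holds means, the test set for such a table was used, limma-voom (limma 3.58.1, R 4.3.3) with these size factors, without a block, on genes that reached 10 reads in 2 or more libraries, with Benjamini-Hochberg adjustment over all genes at a false discovery rate of 10%. Homeolog pairs were tested with limma on log2 ratios with a pseudocount of 0.5. A simulated TKD against control comparison over 16618 genes gave back 18% of 2-fold and 94% of 4-fold changes in limma-voom, and 5 calls were false. A 2-fold change was thus often missed in this simulation of 2 libraries per group. Only 100 genes were changed 2-fold and 100 4-fold, whereas 24.6% of all genes tested were called in the data. An adjusted P-value under 0.1 is harder to reach when few genes change, so neither rate carries over to the data. The changes were placed only in genes above a set mean level, with a dispersion (spread between libraries) of 0.05. Several members lie below that level, so the 94% cannot be read as the rate for members with few reads or a wide spread. Exact intervals are at 95% (binomial, conditional on the reads), and the limit for 0 reads is 3 reads over a group. Named are all member entries, up to 4 called entries of each other pathway list with the lowest adjusted P-value, the knockdown targets and, for the member with most reads, the 3 nearest genes. Other genes named, such as the eomes and wnt8a entries, those listed at 0 and those of the closing observations, were chosen after their values were seen. Alternatives were other scalings (library totals, medians of ratios), other filters on low reads, an adjusted P-value under 0.05, limma-trend, thinning, a pseudocount of 1 for homeolog ratios and each library left out. With 1 library left in a group, that library is assumed to vary like the other group. Tables and figures used Python 3.11.15, NumPy 2.4.6, pandas 2.3.3 and matplotlib 3.10.9. Promoter motifs set for counting were not counted, as no promoter sequences were used here.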

Additional observations from a re-analysis of the deposited data

How the results depend on the processing

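No paired analysis was possible because the recovered reads of the libraries carry no replicate number. Of the member entries, 4 were called lower in the main setting, 2 with all libraries thinned to 1414476 reads, 0 among genes with 20 reads in every library, a filter that the called entries cannot pass, and 1 to 4 with a library left out. The member entries called higher were 0 in every setting run. Of the pathway entries, 35 were called lower and 7 higher in the main setting, and 3 higher at an adjusted P-value under 0.05. With a library left out, 20 to 30 were lower and 1 to 4 higher. Of all genes, 2438 were called lower and 1749 higher, and the higher ones became 2750 with library totals as scaling and 898 at an adjusted P-value under 0.05. With a library left out, 1040 to 2236 genes were lower and 571 to 1528 higher, the lowest without the deeper TKD library. Of the homeolog pairs, 261 were called, and 0 to 176 with a library left out. The 0 came without either control library, where limma gave 386 and 425 pairs at an unadjusted P-value under 0.05. Leaving out a library turned mespa.S to 0.12 (without the deeper control library, range −0.41 to 0.12) and myod1.L to 0.42 (without the deeper TKD library, range −0.60 to 0.42) on the log2 scale. Library totals moved the median of all genes by 0.18 on the log2 scale and the share of lower entries among those called from 58.2% to 41.9%. No member changed sign under library totals. A mean of at least 10 as filter and a quality weight per library, both chosen after seeing the data, left the member count at 4. The median of each list was the same with entries without a TKD read set at their limit. The cause of each of these shifts was not tested. The reads of the twist1 entries were too few for the test.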

Other observations

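The difference between the TKD libraries in msgn1.L and myf5.S was also seen in some other genes of the posterior mesoderm list, which were chosen after their values were seen. Other genes of that list differed in the opposite direction. The Wnt target gene sp5.L had 12.2 normalized reads in the deeper and 62.8 in the shallower TKD library, against 127.8 and 150.3 in control libraries. The caudal gene cdx4.S had 13.2 and 54.6 in TKD against 152.6 and 119.8 in control libraries, and cdx2.S had 9.40 and 33.1 against 65.9 and 66.5. Of their homeologs, cdx2.L also was lower in the deeper TKD library, with 15.0 and 34.7 normalized reads, whereas cdx4.L had 35.7 and 29.8 and sp5.S 3.76 and 4.96. For Brachyury, t.L was nearly level between them, at 60.2 and 71.1, and t.S was at 125.1 and 176.9. In the opposite direction, eomes.S had 576.4 normalized reads in the deeper and 378.7 in the shallower TKD library. The low entry fgf20.L had 11.3 and 1.65.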
